A study of Homo sapiens with 15 samples.

Results

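The change described here is the difference between drug-treated C42B cells and vehicle-treated C42B cells that was common to all 5 drug treatments of the series. It was measured as the mean of the 5 treated group means (12 arrays) minus the mean of the 3 DMSO arrays, and all 15 arrays of the series entered it. A gene was counted as shared when it passed the test of this difference, differed from DMSO in the same direction in each of the 5 groups, and had no overlap between the 12 treated and the 3 DMSO arrays. Of 17687 genes with 1 symbol, 222 met these terms, 132 of them as rises and 90 as falls. The C42B line is a castration-resistant derivative of LNCaP human prostate cancer cells. For 6 h the cells received 10 µM enzalutamide (2 arrays), 15 µM PF543 (3 arrays), 15 µM ABC294640 (1 array), 10 µM enzalutamide with 15 µM PF543 (3 arrays), 10 µM enzalutamide with 15 µM ABC294640 (3 arrays), or 0.125% DMSO (3 arrays). For the treated cells the labels give no percentage of DMSO. They also leave unsaid whether replicates came from separate cultures, and the p-values therefore reflect only the spread among these arrays, which may be technical. The treated arrays differ from the DMSO arrays in having received any drug at all, and no label gives a processing batch. A batch effect and a drug response shared by all treatments cannot be told apart in this design.

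Enzalutamide blocks the response to androgen, which maintains luminal prostate cells and drives genes such as KLK3, which encodes prostate-specific antigen. PF543 and ABC294640 inhibit sphingosine kinases, which turn sphingosine into the signalling lipid sphingosine 1-phosphate. The integrated stress response is a pathway in which kinases that sense amino acid shortage, unfolded protein or other stress slow general translation while the transcription factor ATF4 is made and switches on genes of amino acid supply and stress control.

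The spread within groups was alike across the series. The median absolute difference between arrays of the same group was 0.15 to 0.18 log2 units, and it was 0.17 for each pair of DMSO arrays. Over the probe sets of an array the SD was 3.32 to 3.36 with drug and 3.29 to 3.31 with DMSO, and the lower quartile was 4.57 to 4.63 on the treated arrays and 4.65 to 4.69 on the DMSO arrays. On both measures the treated arrays lay outside the range of the DMSO arrays. Luminal prostate markers were bright, with a median level over the 13 measured genes of 13.1, while the medians for basal epithelial (5 genes, 4.44), neuroendocrine (7 genes, 4.24), fibroblast and muscle (10 genes, 6.03) and blood and endothelial markers (11 genes, 5.80) lay below the median of all genes, 7.06. The mean of the fibroblast and muscle markers was 5.90 to 6.17 on the treated arrays and 6.16 to 6.22 on the DMSO arrays. Of the 10, 1 passed, COL1A2 as lower, beside 0.939% of all genes. Whether a few cells of another type had a part in any shared difference was not tested.

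In the shared difference, 193 genes were higher (1.09% of the genes tested) and 166 were lower (0.939%) at a limma adjusted p under 0.05. Of these, 132 rises (0.746%) and 90 falls (0.509%) were shared by the terms above, 1.26% in all. A same direction in all 5 groups was by itself common, since 7431 genes (42%) had it, 3471 higher (19.6%) and 3960 lower (22.4%), and every one of the 5 differences uses the same DMSO arrays. A lack of overlap was rarer, with 359 genes above the DMSO arrays (2.03%) and 252 below them (1.42%), together 3.45%. Of those genes 389 did not pass the test. At the edge of the threshold, ARHGAP21 (log2 difference 0.54, limma adjusted p = 0.0496) and FOXN3 (0.49, adjusted p = 0.0492) lay just inside, and SLC5A9 (-0.39) and ZBTB11 (0.38), both at adjusted p = 0.0502, just outside.

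The shared changes were small. The median log2 difference was 0.46 for the rises and -0.53 for the falls, against -0.01 for all genes. The genes were picked by this same difference, so medians away from that of all genes are built in. Only 1 rise, CHAC1, and 3 falls, USP26, CYBB and FAM131C, reached a 2-fold change. Rises and falls differed in how bright the genes were. The median level of the rises was 10.4 and that of the falls 6.14, against 7.06 for all genes. Of the 132 rises, 66 were among the brightest 25% of all genes and 1 among the dimmest 25%, whereas 19 of the 90 falls were among the brightest and 23 among the dimmest 25%. The median difference of all genes also ran with level, since over 10 equal bins it was between -0.07 and -0.02 in the 5 dimmer bins and between 0.01 and 0.03 in the 5 brighter bins. The part of this shift in the shared differences was not tested. No detection call was used, so it is not known which dim genes were above background.

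**Figure D1:**
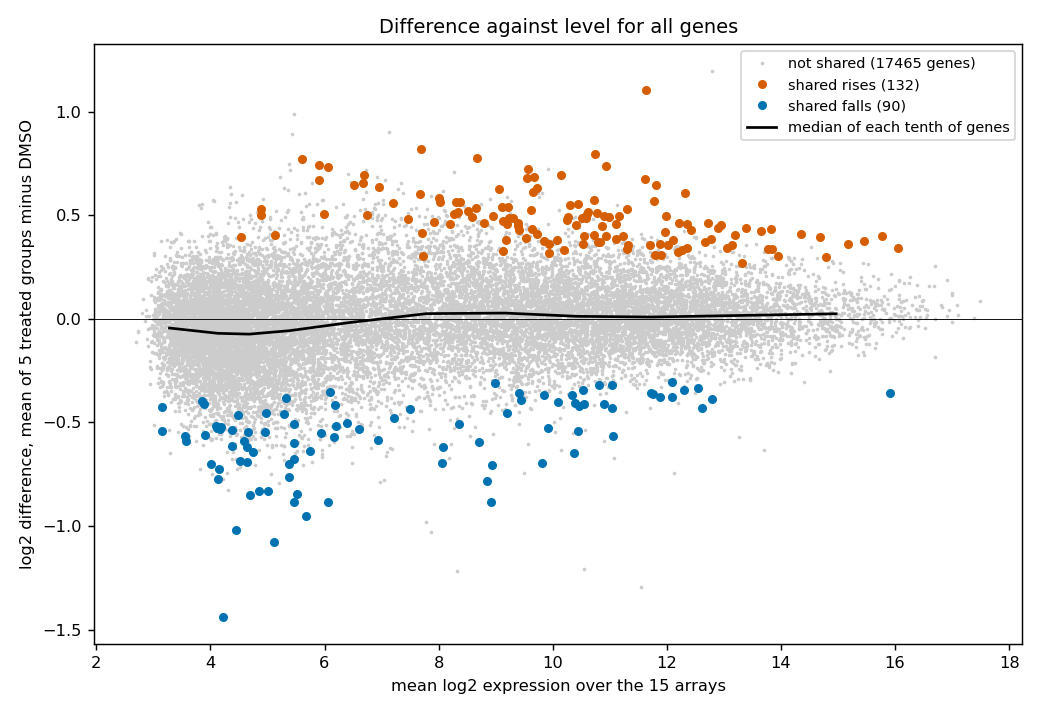
Log2 difference (mean of the 5 treated groups minus DMSO, vertical axis) against mean log2 expression over the 15 arrays (horizontal axis), 1 point per gene. Orange points are the 132 shared rises, blue points the 90 shared falls, grey points the other genes, and the black line joins the medians of 10 equal bins of genes by level. Rises lie mostly on the right, at high levels, and many falls lie on the left.

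Among the gene lists, which were chosen with earlier results of these data known, that of ATF4 targets held the most shared rises. No set test was run. Of 34 measured members of an ATF4 target list, 9 passed as higher and 0 as lower, beside 1.09% and 0.939% of all genes, and 6 of the 9 were shared rises: CHAC1, SESN2, GDF15, SLC6A9, PSPH and STC2. The list's median log2 difference was 0.23, against -0.01 for all genes. By group it was 0.22 in enzalutamide, 0.14 in PF543, 0.06 in ABC294640, 0.37 in enzalutamide-PF543 and 0.27 in enzalutamide-ABC294640, so it was lowest where 1 array stands for the group. Of the members 19 were higher in all 5 groups while 1, ALDH1L2, was lower in all 5. The 25 members that did not pass include ATF4 itself (0.24, limma adjusted p = 0.0741) and the asparagine synthetase ASNS (0.28), just outside the threshold. They also include bright members that moved little, PSAT1 (0.04), PHGDH (0.05), SHMT2 (0.03), MTHFD2 (-0.03) and SLC3A2 (-0.06).

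CHAC1, an enzyme that breaks down glutathione, rose most. Its log2 level was 11.94 and 11.69 with enzalutamide, 11.31, 11.22 and 11.42 with PF543, 10.73 with ABC294640, 12.48, 12.72 and 12.60 with enzalutamide-PF543, and 12.33, 12.11 and 12.12 with enzalutamide-ABC294640, against 10.54, 10.63 and 10.71 with DMSO. As the terms require, all 12 treated arrays lay above the DMSO arrays, but the ABC294640 array barely so. The shared difference was 1.10 (SE 0.09, 2.15-fold, limma adjusted p = 9.59e-05). The ABC294640 group's own difference, 0.10, did not pass (adjusted p = 0.873), and the shared difference rests on the other 4 groups, whose differences ran from 0.69 to 1.97. Over PF543 and ABC294640 alone the CHAC1 difference was 0.40 and did not pass (adjusted p = 0.128).

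SESN2, a stress-induced inhibitor of mTORC1 signalling, had a level of 8.24 to 9.38 (median 8.96) on the 12 treated arrays, against 7.88, 7.96 and 8.22 with DMSO. The lowest treated array almost met the highest DMSO array. Its difference was 0.78 (SE 0.12, limma adjusted p = 0.0111), and the call was lost without DMSO replicate 2 (adjusted p = 0.0587). SLC6A9, a glycine transporter, had 9.90 to 10.64 (median 10.28) on the treated arrays and 9.60, 9.65 and 9.44 with DMSO, a difference of 0.70 (SE 0.08, adjusted p = 0.00352). PSPH, which makes serine in the last step of its synthesis, had 9.53 to 10.05 (median 9.74) on the treated arrays and 9.06, 9.14 and 9.23 with DMSO, a difference of 0.61 (SE 0.08, adjusted p = 0.00461). For these 2 genes the lowest treated array stood clear of the highest DMSO array, and their calls held without any 1 array. Over PF543 and ABC294640 alone the differences of SESN2 (0.43) and SLC6A9 (0.40) did not pass. PSPH, at 0.57 in PF543 and 0.51 in ABC294640, narrowly missed there too (limma adjusted p no higher than 0.0519).

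GDF15, a secreted stress cytokine of the TGF-beta family, had 10.62 to 11.86 (median 10.90) on the treated arrays and 10.61, 10.23 and 10.05 with DMSO. DMSO replicate 1 almost met the lowest treated array. The difference was 0.74 (SE 0.14, limma adjusted p = 0.0224), with 1.49 in enzalutamide-PF543 and 0.43 to 0.71 in the other groups, and the call was lost without DMSO replicate 2 (adjusted p = 0.0967) and without DMSO replicate 3 (adjusted p = 0.0799). The GDF15 difference over PF543 and ABC294640 alone was 0.57 and did not pass. STC2, a secreted glycoprotein, had 12.04 to 12.81 (median 12.50) on the treated arrays and 11.89, 11.98 and 11.98 with DMSO. Its difference was 0.46 (SE 0.07, adjusted p = 0.0119), and it was lost without DMSO replicate 2 (adjusted p = 0.0543). STC2 differed by 0.20 in PF543 and 0.17 in ABC294640, against 0.57 to 0.76 in the groups with enzalutamide, and over PF543 and ABC294640 alone its difference was 0.18 and did not pass (adjusted p = 0.378).

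The 3 other ATF4 targets that passed were not shared. DDIT4, an inhibitor of mTORC1 signalling, had a shared difference of 1.20 (SE 0.10, limma adjusted p = 0.000166) that was larger than that of CHAC1, but the ABC294640 array (11.81) lay below DMSO replicate 1 (11.94). The stress transcription factor DDIT3 (0.71, adjusted p = 0.0418) had PF543 arrays at 7.33 to 7.90, against 7.36 to 7.80 with DMSO, and the pseudokinase TRIB3 (0.61, adjusted p = 0.0325) had an ABC294640 array at 9.15, against DMSO arrays up to 9.26. DDIT3 lost its call without any 1 of the DMSO arrays and TRIB3 likewise, with adjusted p up to 0.132 and 0.112. DDIT3 lost it in 10 and TRIB3 in 4 of the 15 fits that left out 1 array, treated arrays included. Among 14 measured genes of the unfolded protein response of the endoplasmic reticulum, 2 passed as higher and 0 as lower, beside 1.09% and 0.939% of all genes. EDEM1, which helps to clear misfolded glycoproteins, was a shared rise with 9.47 to 10.00 on the treated arrays and 9.19 to 9.30 with DMSO (0.43, SE 0.08, adjusted p = 0.0200). XBP1, a transcription factor of that response, passed at 0.30 (adjusted p = 0.0418) but overlapped. Both were lost without any 1 of the DMSO arrays (adjusted p up to 0.0700 for EDEM1 and 0.153 for XBP1), and XBP1 also without most single treated arrays.

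Promoters of shared rises are shown because the genes moved together and factors such as ATF4 and MYC act through known short elements. A RefSeq promoter window of GRCh38.p14, from 250 bases before to 50 bases after a start site, was found for 107 of the 132 rises, 71 of the 90 falls and 14250 of all genes. The windows were searched on both strands for TGATGNAA, the composite element that ATF4 binds with a C/EBP partner, and for CACGTG, the E-box bound by MYC and by TFEB-type factors. Neither motif contains the other. Capitals in the sequences mark a match. CHAC1 lies at chr15:40953221-40953520 and holds the ATF4-type element on the opposite strand, CCNG2 at chr4:77156957-77157256 holds an E-box, and LAMP1 at chr13:113296989-113297288 holds several E-boxes. SESN2 at chr1:28259268-28259567 is the largest ATF4-list rise after CHAC1 and has a match to neither. All are on the plus strand.
CHAC1: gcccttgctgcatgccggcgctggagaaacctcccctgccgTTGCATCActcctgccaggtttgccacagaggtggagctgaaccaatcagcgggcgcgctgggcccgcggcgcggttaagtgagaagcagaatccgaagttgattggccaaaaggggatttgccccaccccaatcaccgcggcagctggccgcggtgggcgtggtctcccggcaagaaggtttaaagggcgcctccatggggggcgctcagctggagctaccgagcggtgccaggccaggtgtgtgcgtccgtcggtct
SESN2: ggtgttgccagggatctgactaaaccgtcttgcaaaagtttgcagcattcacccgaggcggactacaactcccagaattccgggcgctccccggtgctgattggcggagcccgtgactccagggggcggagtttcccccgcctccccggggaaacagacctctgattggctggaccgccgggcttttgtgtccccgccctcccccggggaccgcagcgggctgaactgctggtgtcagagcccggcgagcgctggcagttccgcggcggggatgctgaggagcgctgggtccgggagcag
CCNG2: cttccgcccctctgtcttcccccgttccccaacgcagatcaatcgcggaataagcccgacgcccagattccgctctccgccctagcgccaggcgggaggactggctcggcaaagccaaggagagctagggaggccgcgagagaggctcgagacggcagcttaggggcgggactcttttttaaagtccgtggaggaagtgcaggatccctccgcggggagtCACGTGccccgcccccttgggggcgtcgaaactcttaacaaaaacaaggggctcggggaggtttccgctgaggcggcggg
LAMP1: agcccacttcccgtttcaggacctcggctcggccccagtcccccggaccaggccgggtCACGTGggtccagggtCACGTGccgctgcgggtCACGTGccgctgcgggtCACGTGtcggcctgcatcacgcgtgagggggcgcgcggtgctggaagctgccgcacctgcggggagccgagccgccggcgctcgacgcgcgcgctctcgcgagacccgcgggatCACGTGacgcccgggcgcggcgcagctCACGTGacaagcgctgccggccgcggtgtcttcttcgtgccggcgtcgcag

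The ATF4-type element was present in 6 of 107 promoters of rises (5.607%), 1 of 71 of falls (1.408%) and 512 of 14250 of all genes (3.593%). The 6 rises were CHAC1, the asparaginyl-tRNA synthetase NARS1 (log2 difference 0.43), the amino acid transporter SLC38A1 (0.38), the lysosomal nuclease DNASE2 (0.53), SNAPC3 of the small nuclear RNA transcription complex (0.49) and SLITRK6 (0.30). All of them but CHAC1 lost their calls without DMSO replicate 2 (limma adjusted p 0.0508 for DNASE2 to 0.143 for SLC38A1). Of the shared rises named above from the ATF4 target list, only CHAC1 was among these 6. The E-box was present in 15 promoters of rises (14.02%), 5 of falls (7.042%) and 1538 of all genes (10.79%). A cAMP response element, TGACGTCA, was present in 5 rises (4.673%), 2 falls (2.817%) and 434 of all genes (3.046%). These shares are descriptions of the windows and were not tested.

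Other large rises came from genes with varied roles. TLK1, a kinase that acts in chromatin assembly, had 10.94 and 11.12 with enzalutamide, 10.70, 10.87 and 10.96 with PF543, 11.15 with ABC294640, 10.83, 10.95 and 10.92 with enzalutamide-PF543, and 10.75, 10.82 and 10.68 with enzalutamide-ABC294640, against 9.87, 10.22 and 10.32 with DMSO. All treated arrays stood clear of the DMSO arrays, and the 5 groups were close to each other. The difference was 0.80 (SE 0.10, 1.74-fold, limma adjusted p = 0.00352), and a test among the treated groups gave an adjusted p = 0.694. TCP11L2 had 5.86 to 6.60 (median 6.23) on the treated arrays and 5.26, 5.56 and 5.59 with DMSO, a difference of 0.73 (SE 0.09, adjusted p = 0.00461). BAIAP2, an adaptor of the actin cytoskeleton, had 12.11 to 12.82 (median 12.47) on the treated arrays and 11.81, 11.84 and 11.74 with DMSO, a difference of 0.61 (SE 0.08, adjusted p = 0.00392). CCNG2, a cyclin linked to cell cycle arrest, had 9.16 to 10.39 (median 9.77) on the treated arrays and 9.13, 8.92 and 9.10 with DMSO, a difference of 0.68 (SE 0.09, adjusted p = 0.00392). Its lowest value was again the ABC294640 array, just above the highest DMSO array. NETO1, an auxiliary subunit of kainate receptors, rose by 0.46 (SE 0.07, adjusted p = 0.00945) and FAM114A1 by 0.64 (SE 0.10, adjusted p = 0.0102). All 6 genes kept their calls without any 1 array. Over PF543 and ABC294640 alone the differences of CCNG2 (0.44), NETO1 (0.35) and FAM114A1 (0.55) did not pass, while TLK1, TCP11L2 and BAIAP2 passed.

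A second set of rises lost the call when DMSO replicate 2 was left out. MAP3K8, a kinase upstream of MEK and ERK, had 7.32 to 8.59 (median 7.79) on the treated arrays and 7.19, 7.06 and 6.91 with DMSO. The difference was 0.82 (SE 0.13, limma adjusted p = 0.0102, and 0.0543 without DMSO replicate 2). LIPG, a lipase of endothelial cells, rose by 0.77 (SE 0.12, adjusted p = 0.0120, and 0.0718 without that array). PLXND1, a semaphorin receptor, rose by 0.74 (SE 0.15, adjusted p = 0.0321, and 0.0786 to 0.101 without any 1 of the DMSO arrays). RTL8B, derived from a retrotransposon Gag gene, rose by 0.72 (SE 0.12, adjusted p = 0.0139, and 0.0766 without it). HOXB13, a homeobox factor of the prostate lineage, had 12.65 to 13.38 (median 13.07) on the treated arrays and 12.63, 12.60 and 12.50 with DMSO, a rise of 0.45 (SE 0.07, adjusted p = 0.0124, and 0.0557 without it and 0.0516 without DMSO replicate 3). HOXB13 differed by 0.15 in PF543 and 0.26 in ABC294640, and over these groups alone its difference was 0.21 and did not pass (adjusted p = 0.321).

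MYC, a transcription factor that drives growth, was among the brightest rises. Its level was 14.60 and 14.59 with enzalutamide, 14.24, 14.32 and 14.20 with PF543, 14.31 with ABC294640, 14.45, 14.33 and 14.34 with enzalutamide-PF543, and 14.54, 14.55 and 14.66 with enzalutamide-ABC294640, against 13.99, 14.07 and 13.98 with DMSO. The difference was 0.41 (SE 0.06, 1.33-fold, limma adjusted p = 0.0113, and 0.0508 without DMSO replicate 2). Over PF543 and ABC294640 alone it was 0.27 and did not pass. Of 14 measured MYC targets and ribosome biogenesis genes, a list that holds MYC itself, 1 passed as higher, which was MYC, and 0 as lower, with a list median of 0.09.

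RPL37, RPL22L1 and TBX1 are named because their 5 group differences had the narrowest range among the shared genes. RPL37, a protein of the large ribosomal subunit, had 15.71 to 16.02 (median 15.85) on the treated arrays and 15.55, 15.34 and 15.47 with DMSO. The 5 group means lay within 0.03 of each other, and the difference was 0.40 (SE 0.08, limma adjusted p = 0.0261, but 0.115 without DMSO replicate 2 and 0.0617 without DMSO replicate 3). It was the only 1 of 34 measured cytosolic ribosomal proteins that passed, beside 1.09% of all genes as higher. The median of that list was 0.06. RPL22L1, a paralog of a ribosomal protein, rose by 0.34 (SE 0.07, adjusted p = 0.0418, and 0.156 without DMSO replicate 2), with group means within 0.04. TBX1, a T-box transcription factor, had 10.54 to 10.66 on the treated arrays and 10.19 to 10.29 with DMSO, a rise of 0.36 (SE 0.06, adjusted p = 0.0140, and 0.0745 without DMSO replicate 2). The treated arrays of TBX1 lay closer to each other than to any DMSO array. The respiratory chain subunit UQCRB (0.43, SE 0.08, adjusted p = 0.0204), the glycolytic enzyme PGK1 (0.30, SE 0.07, adjusted p = 0.0418) and the lysosomal membrane protein LAMP1 (0.37, SE 0.08, adjusted p = 0.0442) were single shared rises of lists with 25, 16 and 24 measured members. The group differences of PGK1 ran from 0.18 in PF543 to 0.46 in ABC294640, and those of LAMP1 from 0.25 to 0.59 in the same groups. RPL22L1, UQCRB, PGK1 and LAMP1 lost their calls without any 1 of the DMSO arrays (adjusted p up to 0.156, 0.0705, 0.130 and 0.141), and all of these but UQCRB also without most single treated arrays.

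Among the falls with levels above the median of all genes, DIPK2A, a divergent protein kinase of the secretory pathway, had the smallest adjusted p. Its level was 8.56 and 8.30 with enzalutamide, 9.17, 9.08 and 9.26 with PF543, 8.96 with ABC294640, 8.53, 8.46 and 8.39 with enzalutamide-PF543, and 8.58, 8.40 and 8.46 with enzalutamide-ABC294640, against 9.57, 9.41 and 9.46 with DMSO. The arrays with enzalutamide were the lowest. The shared difference was -0.78 (SE 0.08, limma adjusted p = 0.000775). TNFAIP8, a regulator of apoptosis, was likewise lowest on the arrays with enzalutamide, with 7.44 to 8.52 (median 7.75) on the treated arrays and 8.62, 8.67 and 8.62 with DMSO (-0.69, SE 0.09, adjusted p = 0.00662). TKTL1, a transketolase-like protein, had 7.61 to 8.31 (median 7.98) on the treated arrays and 8.66, 8.46 and 8.51 with DMSO (-0.62, SE 0.08, adjusted p = 0.00662), with its lowest value on the ABC294640 array. The calls of DIPK2A, TNFAIP8 and TKTL1 held without any 1 array. Over PF543 and ABC294640 alone TKTL1 passed (-0.76, adjusted p = 0.0222), while DIPK2A (-0.41, adjusted p = 0.101) and TNFAIP8 (-0.27, adjusted p = 0.318) did not.

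RND3, a small GTPase that acts on the cytoskeleton, had 9.29 to 10.06 (median 9.69) on the treated arrays and 10.30, 10.46 and 10.42 with DMSO (-0.70, SE 0.10, limma adjusted p = 0.00968). PACS1, a sorting adaptor of the Golgi, had 8.19 to 8.75 on the treated arrays and 9.27, 9.13 and 9.19 with DMSO (-0.59, SE 0.09, adjusted p = 0.0102). Without DMSO replicate 2 the adjusted p was 0.0543 for RND3 and 0.0508 for PACS1. The deubiquitinase USP35 fell by 0.71 on the log2 scale (SE 0.11, adjusted p = 0.0102, and 0.0543 without that array). TNFRSF10D, a decoy receptor for TRAIL, fell by 0.65 (SE 0.14, adjusted p = 0.0343, and 0.150 without it, 0.0837 without DMSO replicate 3), and CASP16P, a caspase pseudogene whose probes may also bind related sequences, fell by 0.88 (SE 0.12, adjusted p = 0.00680, and 0.0525 without it).

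KLK3 was the brightest named fall and the only one of 26 measured androgen-induced genes that was shared, beside 0.509% of all genes as shared falls. Its level was 15.83 and 15.75 with enzalutamide, 16.05, 16.02 and 16.01 with PF543, 16.04 with ABC294640, 15.69, 15.74 and 15.64 with enzalutamide-PF543, and 15.82, 15.66 and 15.67 with enzalutamide-ABC294640, against 16.18, 16.22 and 16.23 with DMSO. All 12 treated arrays were below the DMSO arrays, as the terms require. Those with enzalutamide were lowest, though the treated groups did not differ past the threshold (F-test adjusted p = 0.223). The shared difference was -0.36 (SE 0.06, 1.28-fold lower, limma adjusted p = 0.0177, but 0.0782 without DMSO replicate 2 and 0.0578 without DMSO replicate 3). Over PF543 and ABC294640 alone it was -0.18 and did not pass (adjusted p = 0.322). SPHK1, the target of PF543, was at 7.24 to 8.10 on the treated arrays and 7.93 to 8.05 with DMSO, and its difference of -0.33 (SE 0.10) did not pass (adjusted p = 0.0935).

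Of the 10 largest falls all but CASP16P were in genes below the median level of all genes. USP26, a deubiquitinase of the testis, had 4.28 and 4.35 with enzalutamide, 4.18, 4.26 and 3.76 with PF543, 3.39 with ABC294640, 4.06, 4.21 and 3.74 with enzalutamide-PF543, and 3.85, 3.46 and 3.67 with enzalutamide-ABC294640, against 4.75, 5.71 and 5.51 with DMSO. The DMSO arrays spread over almost 1 log2 unit. That they lay above every treated array is among the terms for a shared fall. The difference was -1.44 (SE 0.18, 2.71-fold lower, limma adjusted p = 0.00392). CYBB, a subunit of the phagocyte NADPH oxidase, had 4.41 to 5.36 (median 4.89) on the treated arrays and 5.65, 5.99 and 6.09 with DMSO (-1.08, SE 0.15, adjusted p = 0.00690, and 0.0525 without DMSO replicate 2). NPY4R, a neuropeptide receptor, had 2.88 to 3.21 on the treated arrays and 3.51, 3.62 and 3.64 with DMSO (-0.54, SE 0.07, adjusted p = 0.00662). KRTAP27-1, a keratin-associated protein of hair, had 4.48 to 4.85 on the treated arrays and 5.37, 6.00 and 5.20 with DMSO (-0.83, SE 0.13, adjusted p = 0.0111). CCDC116 fell by 0.84 (SE 0.12, adjusted p = 0.00937). USP26, NPY4R, KRTAP27-1 and CCDC116 kept their calls without any 1 array. Over PF543 and ABC294640 alone USP26 and CCDC116 passed. NPY4R and KRTAP27-1 narrowly missed there (limma adjusted p no higher than 0.0564 and 0.0519).

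The other dim falls were less firm. ANKS1B, a synaptic scaffold protein (-0.95), ITGA2B, the platelet integrin subunit alpha IIb (-0.88), and RFPL3S, an antisense transcript of RFPL3 (-0.88), had limma adjusted p of 0.0124, 0.0132 and 0.0153, and 0.0719, 0.0745 and 0.0852 without DMSO replicate 2. RFPL3S was also lost without DMSO replicate 1 (adjusted p = 0.0572). FAM131C (-1.02, adjusted p = 0.0421) and DSE, an epimerase of dermatan sulfate (-0.85, adjusted p = 0.0396), also lost their calls without DMSO replicate 2 (0.134 and 0.105), without DMSO replicate 3 (0.134 and 0.127) and without several single treated arrays. The lists of olfactory receptors and keratin-associated proteins had negative medians and few calls. Of 36 measured olfactory receptors 1 passed as lower and 0 as higher, with 13 lower and 4 higher in all 5 groups and a median of -0.11. The receptor that passed, OR7A5 (-0.54, adjusted p = 0.0396), was not shared and was lost without DMSO replicate 2 (adjusted p = 0.148) and without DMSO replicate 3 (0.125). Of 22 keratin-associated proteins in a list without KRTAP27-1, 1 passed as lower, KRTAP10-10 (-0.60, adjusted p = 0.0422), with 9 lower and 1 higher in all 5 groups. The list's median was -0.13 at a median level of 4.94, where the bin of all genes also had -0.07. KRTAP10-10 lost its call in 11 of the 15 fits that left out 1 array (adjusted p up to 0.129). After quantile normalization the medians of the 2 lists were -0.04 and -0.04 and none of these genes passed.

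**Figure D2:**
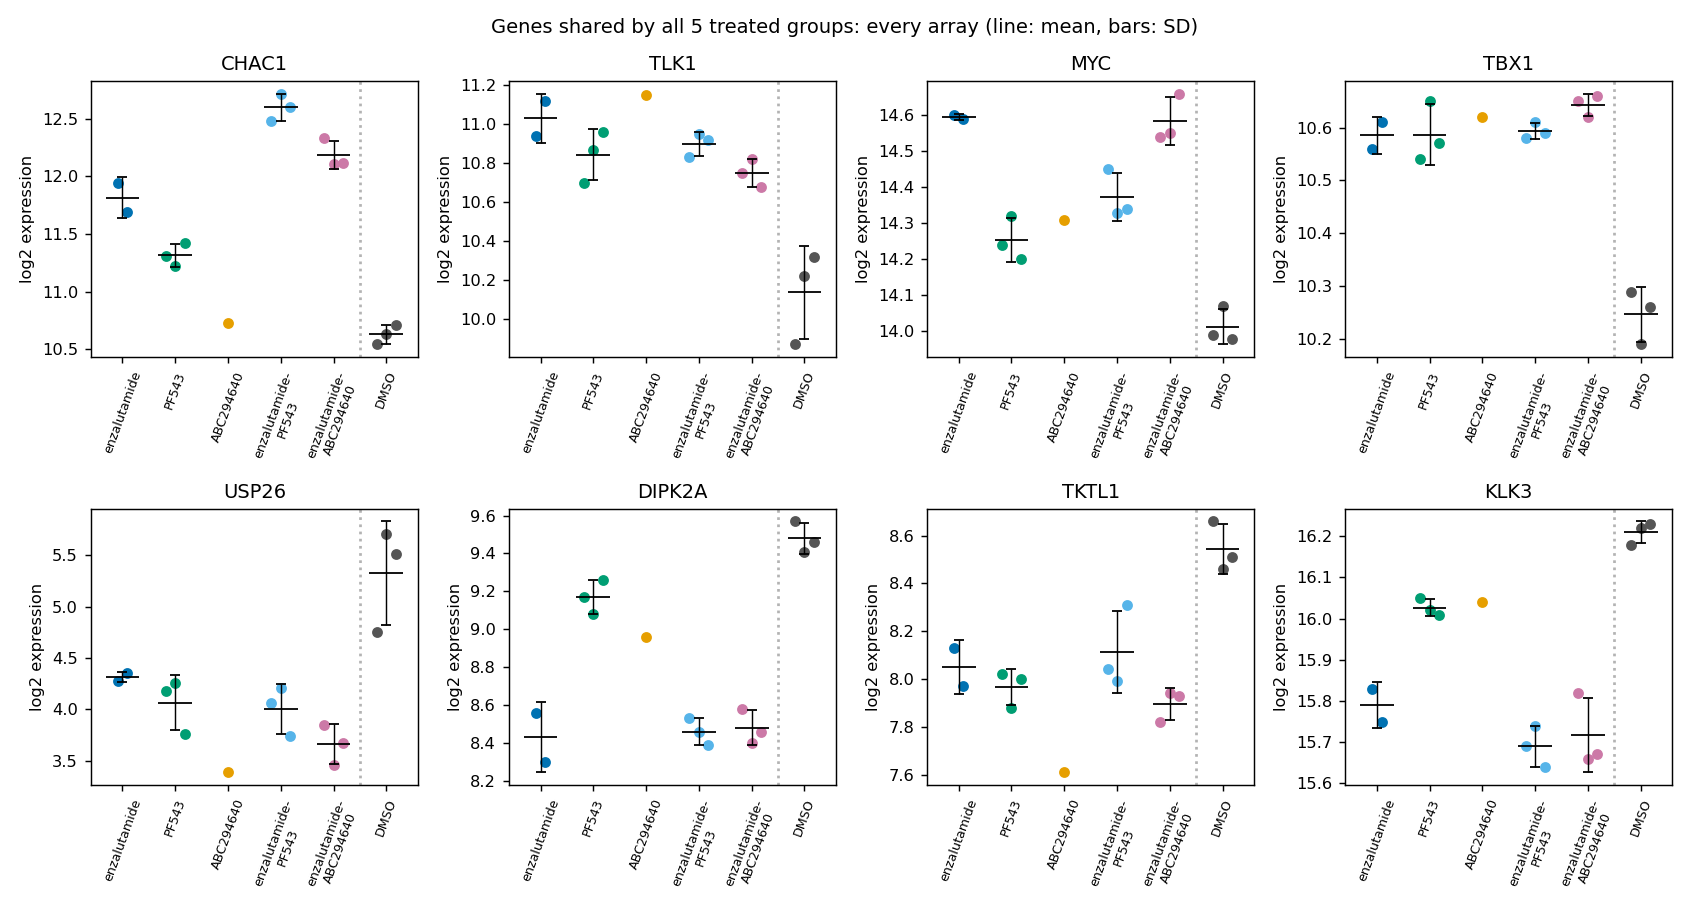
Log2 expression (vertical axes) on every array for 8 genes in the 5 treated groups and, right of the dotted line, in DMSO. Points are arrays, lines are group means and bars are SD, with no SD for the single ABC294640 array. In each panel all 12 treated arrays lie on one side of the DMSO arrays, as the terms for a shared gene require. The ABC294640 array of CHAC1 lies close to the DMSO arrays.

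A further 137 genes passed the test without being shared, 20 because a group had another sign and 117 because arrays overlapped. The 3 largest of these differences were in androgen-induced genes. Of 26 measured members 7 passed as lower and 0 as higher, beside 0.939% and 1.09% of all genes. By the F-test 10 of the 26 differed among the treated groups, beside 0.351% of all genes. C1orf116, an androgen-regulated gene, had a shared difference of -1.29 (SE 0.09, limma adjusted p = 2.78e-05), yet its level was 10.10 to 10.78 on the arrays with enzalutamide and 12.89 to 12.97 on the PF543 and ABC294640 arrays, against 12.58 to 12.78 with DMSO. The transcription factor ZBTB16 (-1.22), the small GTPase RHOU (-1.21), the membrane protein PMEPA1 (-0.74), the sugar transporter SLC45A3 (-0.75) and the protease TMPRSS2 (-0.43) were likewise low with enzalutamide and not with PF543 or ABC294640 alone. For these genes the shared difference is a mean over unlike groups and not a common change. PMEPA1 and TMPRSS2 lost their calls without DMSO replicate 2 (adjusted p 0.0747 and 0.0623), and TMPRSS2 also without DMSO replicate 1 (0.0597).

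Other lists held few shared genes. At the shares of all genes, 1.09% passing as higher and 0.939% as lower, lists of these sizes would also hold few calls. Of 10 androgen-repressed genes 2 passed as higher, CCNG2 as a shared rise and the protein kinase C isoform PRKCH without being shared (0.52, limma adjusted p = 0.0400, and 0.156 without DMSO replicate 2). Of 14 NF-kB targets MAP3K8 was a shared rise, and the NF-kB inhibitor NFKBIA passed as lower (-0.40, adjusted p = 0.0437) without being shared and was lost without any 1 of the DMSO arrays (adjusted p up to 0.128). Of 12 feedback inhibitors of ERK signalling 1 passed as lower and was not shared, the EGFR inhibitor ERRFI1 (-0.57, adjusted p = 0.00680). For xenobiotic receptor targets (11 measured), NRF2 targets (18), heat shock genes (14), metallothioneins (10), interferon-stimulated genes (17), DNA replication and G1/S genes (23), replication-dependent histones (30), spliceosome (23) and proteasome genes (24), 0 members passed in either direction. The FOXO target list had CCNG2 and TSC22D3, a glucocorticoid- and FOXO-responsive factor, higher and the thioredoxin inhibitor TXNIP lower among 13, and only CCNG2 was shared. Lipid lists had 1 gene each that passed as higher and was not shared, DHCR7 among 18 cholesterol genes, ELOVL6 among 13 fatty acid genes and SGMS2 among 27 sphingolipid genes. Of the 15 fits that left out 1 array, SGMS2 lost its call in 14 (adjusted p up to 0.163), DHCR7 in 13 (up to 0.139), TXNIP in 7 (up to 0.137), ELOVL6 in 3 (up to 0.112) and TSC22D3 in 2 (up to 0.0900), each time including the fit without DMSO replicate 2. In the cholesterol list 9 of 18 members differed among the treated groups, beside 0.351% of all genes. Of 20 mitosis genes 1 passed, CENPE, a kinesin of the centromere, as a shared fall (-0.42, SE 0.08, limma adjusted p = 0.0299, and 0.101 without DMSO replicate 2). Of 17 p53 targets 1 passed, the DNA polymerase POLH, as a shared fall (-0.37, SE 0.08, adjusted p = 0.0320, and 0.0582 without it). Of 41 zinc finger genes of the KRAB type 1 passed, ZNF461, as a shared fall (-0.34, SE 0.07, adjusted p = 0.0344, and 0.147 without it), while the list's median was 0.10. CENPE, POLH and ZNF461 were also lost without either other DMSO array.

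**Figure D3:**
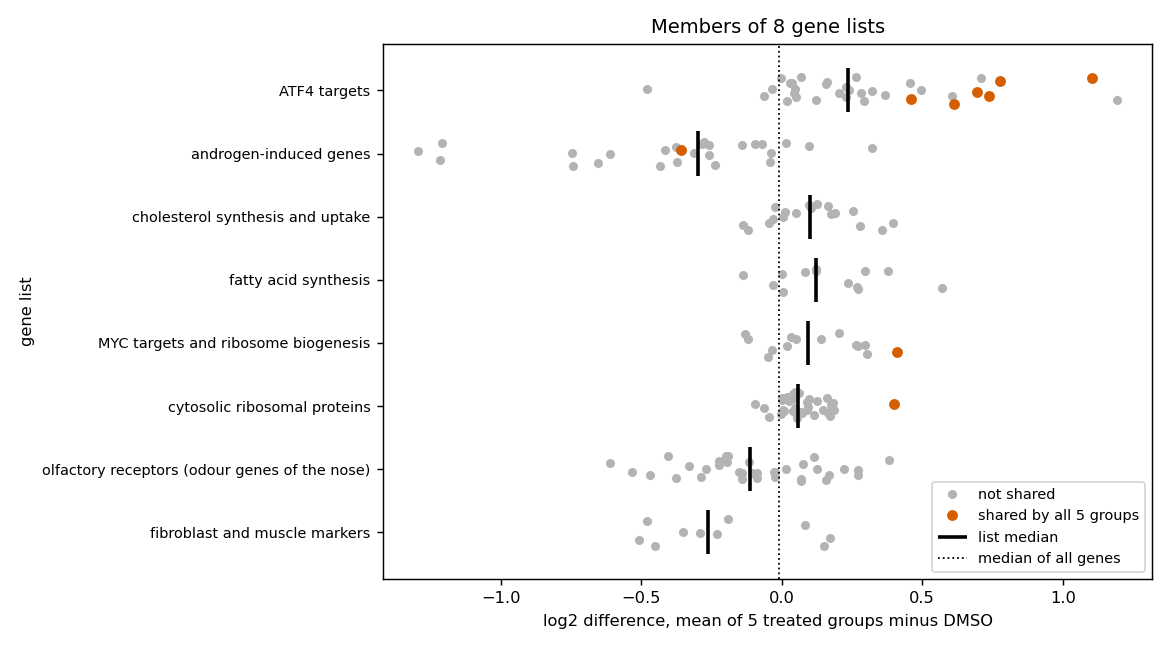
Log2 difference (mean of the 5 treated groups minus DMSO, horizontal axis) for each measured member of 8 gene lists (rows). Orange points are shared genes, grey points are not, black bars are list medians and the dotted line is the median of all genes at -0.01. The ATF4 targets hold 6 shared genes around a median of 0.23, and the androgen-induced genes 1 around a median of -0.30.

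The 5 groups contributed unequally to the calls. On its own against DMSO, enzalutamide-PF543 had 198 genes higher (1.12%) and 160 lower (0.905%), enzalutamide-ABC294640 60 (0.339%) and 64 (0.362%), PF543 64 (0.362%) and 36 (0.204%), enzalutamide 22 (0.124%) and 33 (0.187%), and the single ABC294640 array 0 (0%) and 0 (0%) by limma. Of the 132 shared rises, 82 passed in enzalutamide-PF543, 34 in enzalutamide-ABC294640, 25 in PF543, 14 in enzalutamide and 0 in ABC294640, and of the 90 falls 53, 19, 20, 6 and 0. The median log2 difference of the rises lay between 0.425 in PF543 and 0.497 in enzalutamide-PF543. That of the falls lay between -0.48 in enzalutamide and -0.56 in ABC294640. The median range of the treated group means was 0.24 for rises and 0.29 for falls, against 0.31 for all genes. The terms for a shared gene ask every group, the single ABC294640 array included, to lie beyond DMSO on the same side, so like medians and a narrow range are partly built in and are given as a description only. Single genes differed widely, as CHAC1 and CCNG2 did. All of these comparisons use the same DMSO arrays.

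A comparison among the treated groups uses no DMSO array in the difference. By limma's moderated F-test 62 of all genes (0.351%) differed among the 5 groups, and of the 222 shared genes 4 did, CHAC1, CCNG2, DIPK2A and TNFAIP8. CHAC1 was higher in enzalutamide-PF543 than in PF543 by 1.28 (adjusted p = 7.73e-05) and higher in enzalutamide-ABC294640 than in ABC294640 by 1.46 (adjusted p = 0.00119). CCNG2 and GDF15 were higher in enzalutamide-PF543 than in enzalutamide-ABC294640, by 0.73 (adjusted p = 0.0292) and 1.05 (adjusted p = 0.0377). DIPK2A and TNFAIP8 were lower in enzalutamide-PF543 than in PF543, by -0.71 (adjusted p = 0.00592) and -0.72 (adjusted p = 0.0206), and lower in enzalutamide than in PF543, by -0.74 (adjusted p = 0.00816) and -0.81 (adjusted p = 0.0164). SLC6A9 and STC2 were higher in enzalutamide-PF543 than in PF543, by 0.66 (adjusted p = 0.0195) and 0.57 (adjusted p = 0.0199), and HOXB13 was higher in enzalutamide than in PF543, by 0.60 (adjusted p = 0.0241). GDF15, SLC6A9, STC2 and HOXB13 passed in these single comparisons and not in the F-test. Over the 6 comparisons run between treated groups these 8 were the named shared genes that passed. A difference that missed the threshold does not show that the groups were equal.

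**Figure D4:**
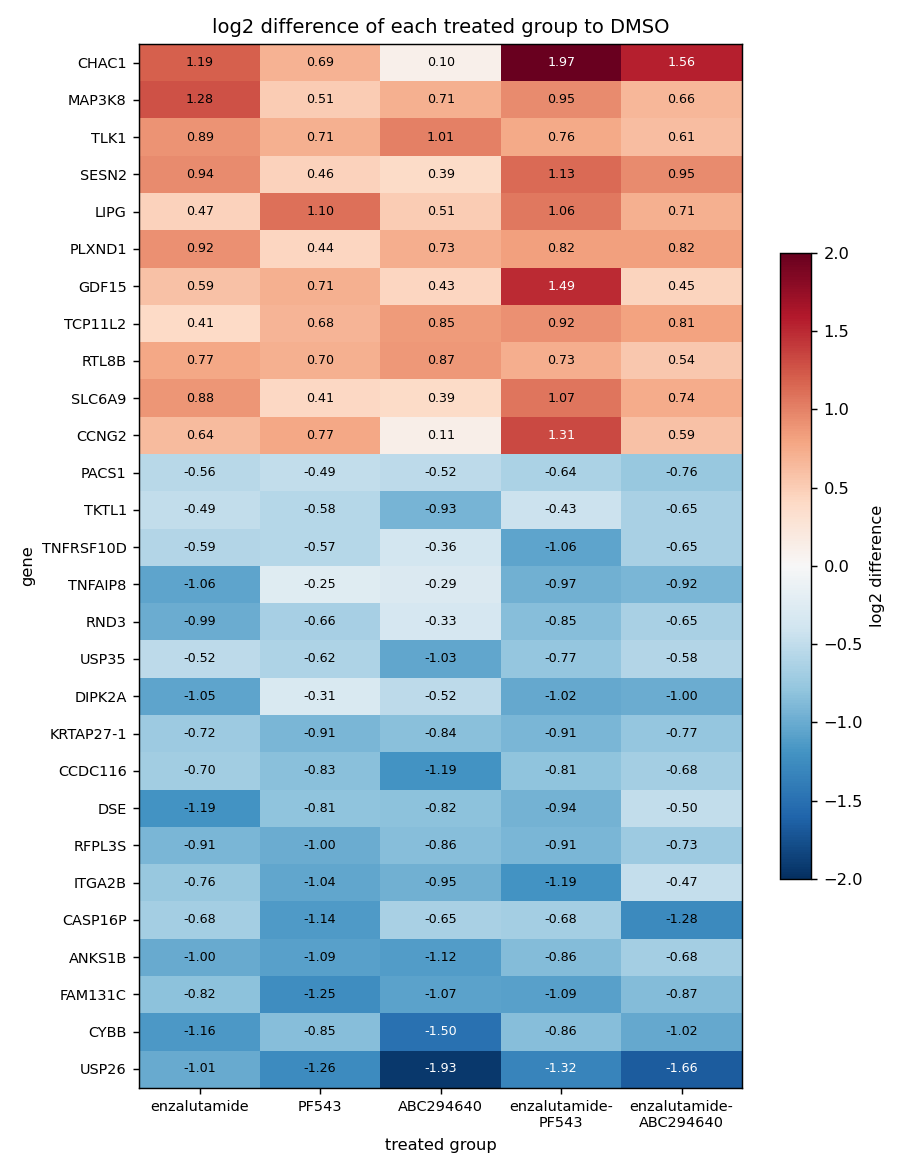
Log2 difference of each treated group (columns) to DMSO for the named shared genes with the largest changes (rows), from rises at the top to falls at the bottom. Red is higher and blue is lower than DMSO, with the value printed in each cell. Every gene has 1 colour across its row, as the terms require, while CHAC1 runs from 0.10 in ABC294640 to 1.97 in enzalutamide-PF543.

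How far the shared genes rest on single arrays or groups was uneven. Over PF543 and ABC294640 alone, with 4 treated arrays, 7 of the 132 shared rises and 16 of the 90 shared falls met the terms. Of 81 named genes, 53 lost their calls without DMSO replicate 2, 34 without DMSO replicate 3, 27 without DMSO replicate 1 and at most 20 without any 1 treated array. The 81 include genes that passed without being shared. They also include SPHK1, ATF4, ASNS, ALDH1L2, SLC5A9 and ZBTB11, which had no call to lose. Without DMSO replicate 2, 12 genes were higher and 20 lower by limma, and 10 of the 132 shared rises and 7 of the 90 shared falls met the same terms again. Without DMSO replicate 1 those numbers were 53 and 31, and without DMSO replicate 3 they were 47 and 32. The DMSO arrays differed from each other by like amounts, and DMSO replicate 2 was the one nearest to the treated arrays for 29 rises and 21 falls, less often than DMSO replicate 1 (51 and 32) or DMSO replicate 3 (52 and 37). Leaving out a treated array had less effect, and 77 rises and 47 falls passed the test without each of the 12 treated arrays in turn. Without each of all 15 arrays in turn, 16 genes passed throughout. These were the rises CHAC1, TLK1, TCP11L2, SLC6A9, CCNG2, FAM114A1, PSPH, BAIAP2 and NETO1 and the falls NPY4R, TKTL1, TNFAIP8, DIPK2A, KRTAP27-1, CCDC116 and USP26.

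**Figure D5:**
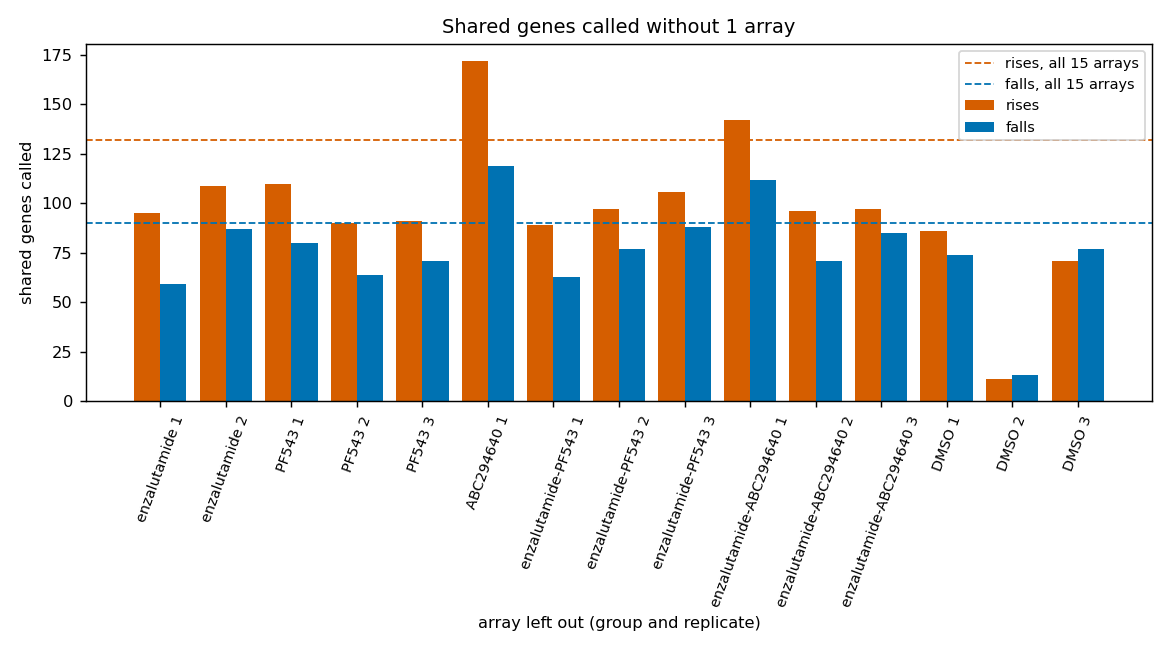
Number of shared rises (orange bars) and shared falls (blue bars) called when the array named on the horizontal axis was left out, with dashed lines at 132 rises and 90 falls for all 15 arrays. The counts drop to 11 and 13 without DMSO replicate 2 and reach 172 and 119 without the ABC294640 array.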

How the data were processed

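Gene expression was measured on 15 Affymetrix whole-transcript arrays. Values are log2 expression as deposited by the authors, who per the submitters' processing notes used RMA and Transcriptome Analysis Console 4.02. RMA corrects background, normalizes arrays to each other and summarises probes, which would hide a shift of most genes at once. The RMA variant and annotation used are unknown from these sources.

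Of 21448 probe sets, 17709 had 1 gene symbol and 3739 none. For 20 genes with several probe sets the brightest was kept, which left 17687 genes. Group means were fitted over the 15 arrays with limma 3.58.1 in R 4.3.3 (9 residual and 3.82 prior degrees of freedom), and p-values were Benjamini-Hochberg adjusted over all genes at 0.05. ABC294640, with 1 array, borrows its spread from the other groups. The number of arrays limits the precision. No 2 arrays were identical.

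The members and the 35 gene lists (656 of 740 genes measured) were chosen with earlier results of these data known. Named were the 10 largest rises and falls among shared genes, the 8 largest of each above the median level, up to 3 shared members of each list, the 3 with the smallest F-test p, the 3 with the narrowest range of group differences, SPHK1 and KLK3. A gene named in any case is not analysed here. Named after their values were seen were DDIT4, DDIT3, TRIB3, STC2, PSPH, XBP1, SGMS2, DHCR7, ELOVL6, TXNIP, TSC22D3, COL1A2, FAM114A1, BAIAP2, NETO1, NPY4R, C1orf116, ZBTB16, PMEPA1, TMPRSS2, SLC45A3, RHOU, the list members PRKCH, ERRFI1, NFKBIA, OR7A5, ATF4, ASNS and ALDH1L2, and the genes at the threshold or with a motif.

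Same-numbered arrays of different groups did not deviate together (26 pairs, r from -0.04 to 0.07), so the numbers were not treated as pairs. Alternatives were other normalizations, filters, priors, weights and groupings, the replicate number as a block, and each array left out. Plots used Python 3.11.15 and matplotlib 3.10.9.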

Additional observations from a re-analysis of the deposited data

Results flagged for a closer look

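For 4 of the 222 shared genes the 5 treated groups differed from each other although all 5 moved the same way from DMSO. By limma's moderated F-test among the treated groups, adjusted over all genes, the adjusted p was 7.49e-05 for CHAC1, 0.00723 for CCNG2, 0.00770 for DIPK2A and 0.0200 for TNFAIP8. The group differences to DMSO ran from 0.10 (ABC294640) to 1.97 (enzalutamide-PF543) for CHAC1 and from 0.11 (ABC294640) to 1.31 (enzalutamide-PF543) for CCNG2. For DIPK2A they ran from -1.05 (enzalutamide) to -0.31 (PF543), and for TNFAIP8 from -1.06 (enzalutamide) to -0.25 (PF543). No group has more than 3 arrays, so no array was tested as an outlier of its group.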

How the results depend on the processing

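With all arrays 193 genes were higher and 166 lower, 132 and 90 of them shared. When each array was left out in turn, the counts ran from 12 to 251 higher, 20 to 222 lower, 11 to 172 shared rises and 13 to 119 shared falls. The lowest counts came without DMSO replicate 2 and the highest without ABC294640 replicate 1. Counts of higher or lower genes also moved by over 1.5 times without DMSO replicate 1 (90 and 89) and DMSO replicate 3 (74 and 94), and without enzalutamide replicate 1, enzalutamide-ABC294640 replicates 2 and 3, enzalutamide-PF543 replicates 1 and 2, and PF543 replicates 2 and 3, where they were 111 to 121 higher and 96 to 122 lower. Genes that differ among the treated groups numbered 40 to 63, with the lowest count without enzalutamide-PF543 replicate 2. Genes with all treated arrays above DMSO numbered 368 to 751 and below DMSO 262 to 678, with the highest counts without DMSO replicate 3, where fewer DMSO arrays have to be passed.

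Without the dimmest 25% of genes there were 341 higher and 201 shared rises. A robust and trended prior gave 665 higher and 469 lower, 281 and 172 shared, and 267 that differed among the treated groups. Array weights gave 118 higher and 95 lower. The single-agent groups alone gave 34 and 35 (32 and 31 shared), the groups without enzalutamide 13 and 24 (12 and 24 shared), the combinations 245 shared rises and 207 shared falls, and the groups with enzalutamide 168 shared falls. A 2-fold minimum left 2 and 7 (1 and 3 shared), and unadjusted p gave 1667 and 1792 (346 and 246 shared). Causes were not tested beyond the smaller number of arrays or genes that some settings use. Over the groups without enzalutamide the sign turned for C1orf116 (0.24), ZBTB16 (0.13), PMEPA1 (0.21), TMPRSS2 (0.21), SLC45A3 (0.047) and NFKBIA (0.043), none of them shared. A shared gene could not turn here, since its terms ask for the same direction in each group.

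Of the 132 rises and 90 falls, 83 and 68 met the same terms after quantile normalization and 91 and 71 after cyclic loess. No shared gene changed sign in these or the other settings. The terms require all treated arrays of a shared gene to lie on the same side of all DMSO arrays. Leaving out, regrouping or reweighting arrays therefore could not turn its sign, and those settings do not test it. Quantile normalization and cyclic loess change the values themselves. But the shared genes were picked for a clear difference, of at least 0.27 for rises and at most -0.30 for falls. Their kept signs after these normalizations are therefore a description and not a test. The replicate number as a block, with the ABC294640 array left out, gave 136 higher and 126 lower, 97 and 76 shared and 48 that differed among the treated groups. The numbers are not a known pairing, and 4 of 14 arrays correlated better with their own number than with the others. Signal over background was not used here, which limits what can be said of dim genes.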

Other observations

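Beside the genes with a symbol, 3739 probe sets were unnamed here. When all 21448 probe sets were tested together, 27 of the unnamed ones were higher and 50 lower in the treated groups by limma, and 19 and 33 met the terms for shared rises and falls. Their median level was 5.71, below the 6.73 of all probe sets.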
